A study of Mus musculus with 653 samples.

Results

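Integrins and laminins are the receptors and the ligands through which cells hold on to their surroundings. Genes were chosen by symbol: all integrin α chains of the numbered, v, d, e, l, m and x series, all integrin β chains except *Itgb2*, and all laminin α, β and γ chains, each with at least 1 read. *Itga2b* and *Itgb2*, which mark platelets and leukocytes, were left out. The rule matched 35 of 54195 genes listed, and 34 of them had reads, 16 α chains, 7 β chains and 11 laminin chains, out of 28292 genes with reads. *Itgam*, the α chain of a leukocyte receptor, is listed at 0 in every cell.

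Each integrin is a heterodimer of 1 α and 1 β chain that spans the plasma membrane, and the choice of α chain largely sets which matrix protein is bound. Laminins are trimers of 1 α, 1 β and 1 γ chain that form the sheet of a basement membrane together with type IV collagen, nidogens and perlecan. In the fetal liver, hepatoblasts, mesenchymal cells and blood-forming cells lie side by side, and blood progenitors adhere to the stroma partly through integrins that carry the α4 and α5 chains.

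The cells came from livers of mouse embryos at E10.5 and E13.5 (embryonic days). All embryos had an Lgr5-EGFP-IRES-creERT2 father on a C57BL/6 background and an MF1 mother, so that green fluorescent protein (GFP) reports activity of the *Lgr5* locus in cells that carry the allele. According to the methods, dissociated cells were sorted for the surface antigen Liv2 and against CD31 and CD45, either without regard to GFP (bulk) or for Lgr5-GFP+, and single-cell cDNA was made by Smart-seq2. The data hold 69.2% of the 943 cells that the series description gives (471 at E10.5 and 472 at E13.5). Of the cells held, 31.1% were bulk and 32.3% Lgr5-GFP+ at E10.5, and 24.3% were bulk and 12.3% Lgr5-GFP+ at E13.5, the last being 80 cells.

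Each sample is 1 cell, and the labels name no embryo, litter or sort, so each of the 4 stage and sort groups is 1 sample. No p-value can be given, and folds are described without a test. Levels are reads of a gene per 1000000 reads (RPM), both summed over a set of cells. Intervals are 95% exact Poisson intervals for levels and 95% Clopper-Pearson intervals for shares of cells, and they cover counting error only (for a count of 0, the limit that 3 counts would give is printed as well), because amplified reads without molecular identifiers are not independent molecules. The labels give 5 library pools, which served as technical batches, and a pool value was used where a pool held at least 5 cells of a set. Cells held 463347 to 2279700 reads with a median of 1192740. Of 365 index pairs, 230 were used in more than 1 pool, and 0 cells had the same counts as another cell.

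The labels call all cells liver hepatoblasts, which the marker reads did not bear out. Cells were put in lineages by more than 10 reads of exactly 1 of 4 markers, *Afp* (α-fetoprotein of hepatoblasts), *Klf1* (erythroid transcription factor), *Pdgfra* (growth factor receptor of mesenchyme) and *Pax3* (transcription factor of migrating muscle progenitors). There were 61 Afp cells, 160 Klf1 cells and 30 Pax3 cells, while 242 cells were above none and 13 above several. Pdgfra cells made up 22.51% of all cells, with 75 from the bulk and 64 from the Lgr5-GFP+ sort at E10.5 and 1 and 7 from these sorts at E13.5. More than 10 reads in at least 3 genes of the matching marker list were found in 60 of 61 Afp cells (hepatoblast list), 150 of 160 Klf1 cells (erythroid list), 93.9% of Pdgfra cells (mesenchyme list) and 23 of 30 Pax3 cells (muscle progenitor list), and 16 Pax3 cells also passed for mesenchyme. Lineage and sort overlapped strongly. Of the Afp cells, 53 were E10.5 Lgr5-GFP+ and 0 were E13.5 bulk, and of the Klf1 cells, 32 were E10.5 bulk, 3 were E13.5 Lgr5-GFP+ and the rest were E13.5 bulk, so that lineage, stage and sort cannot be told apart in full.

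Summed over stages and sorts, Klf1 cells had the highest level of *Itgb1* and of *Itga4* and the lowest summed level of laminin. Afp cells had the least *Itgb1* and almost no *Itga4*. At E10.5 alone the order for *Itgb1* differed, with 220.0 RPM in bulk Klf1 cells against 334 RPM in bulk Pdgfra cells. Pdgfra cells had the highest summed level of 9 of the 17 genes with enough reads to be counted, and of 27.55% of all genes counted. The summed level of the 11 laminin chains was 213.8 RPM in Afp cells, 283.9 RPM in Pdgfra cells and 238.9 RPM in Pax3 cells, against 9.903 RPM in Klf1 cells. In the 5 pools, the laminin sum of Klf1 cells ranged from 2.72 to 17.4 RPM and that of Pdgfra cells from 232.8 to 355.8 RPM, without overlap. The 16 α chains together gave 141.6, 184.3, 316.8 and 253.9 RPM in Afp, Klf1, Pdgfra and Pax3 cells, and the 7 β chains 172.3, 493.3, 376.9 and 485.5 RPM.

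**Figure D1:**
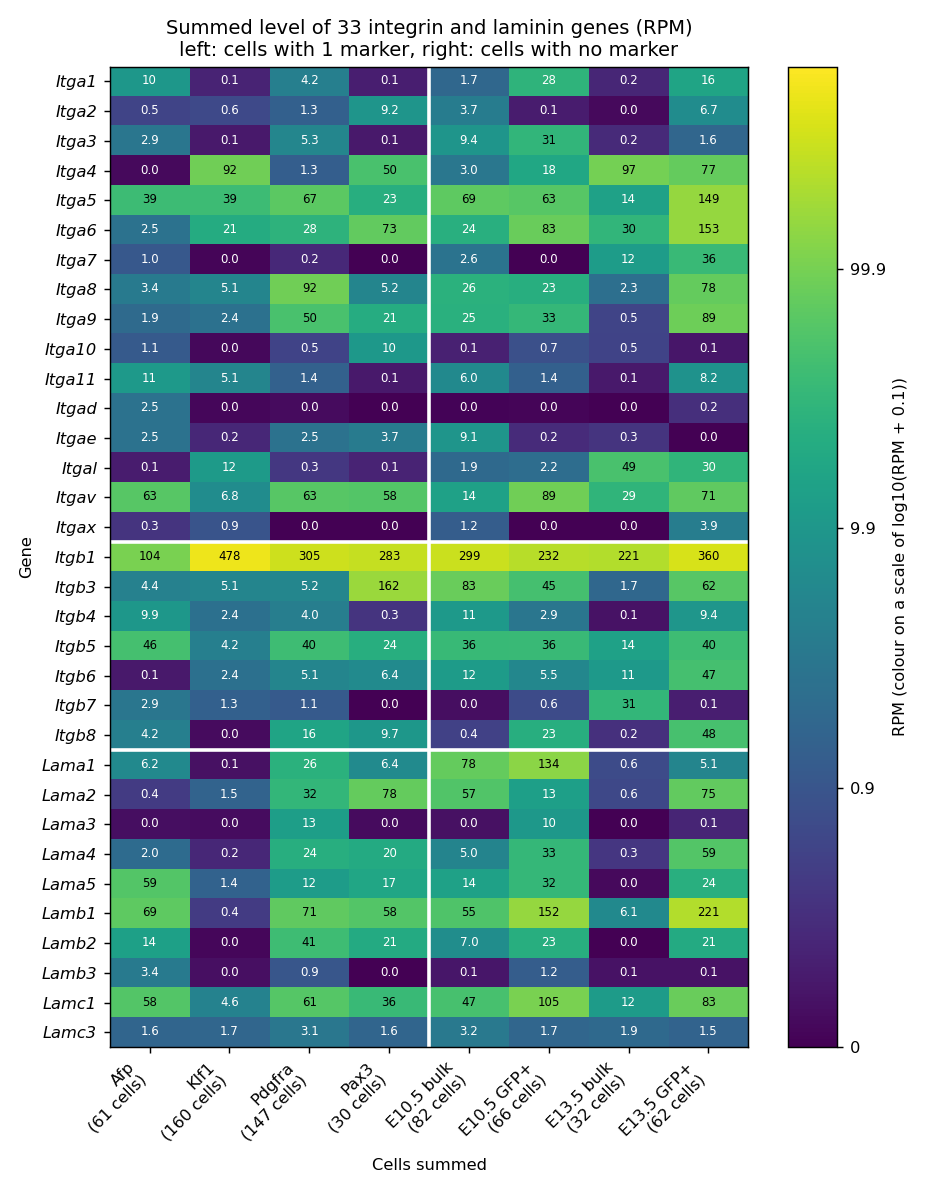
Heat map of the summed level (RPM, colour on a log10 scale, value in each cell of the map) of 33 of the 34 genes with reads (vertical axis), with the 4 lineages on the left and the cells above none of the 4 markers, by stage and sort, on the right. The Klf1 column is brightest at *Itgb1* (478 RPM) and dark over the laminin chains, and *Itga8* is bright in the Pdgfra column (92.2 RPM).

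A gene was counted where its mean over the 4 lineages was at least 5 RPM, which 17 of the 34 genes with reads and 10763 of all genes reached. It was called highest in a lineage where its level was at least 4 times that of each other lineage and above each in every shared pool, and lowest by the same rule turned round. Among the 17 genes, 2 were highest in Pdgfra cells (*Itga8* and *Lama1*; 1.88% of all counted genes), and 0 were highest in Afp cells (2.23%), Klf1 cells (1.93%) or Pax3 cells (0.632%). Lowest in Klf1 cells were 6 genes, *Itgav*, *Itgb5*, *Lama5*, *Lamb1*, *Lamb2* and *Lamc1* (4.09% of all counted genes). Lowest in Afp cells was 1 gene, *Itga4* (0.734%), and 0 were lowest in Pdgfra cells (0.0836%) or Pax3 cells (1.51%). The median log2 ratio of the highest to the next lineage was 0.88 over the 17 genes and 0.47 over the 10763 genes. Leaving out 1 pool, scaling or stage changed several of these calls, so the plot of levels by pool shows all genes called, and pool values are printed for several of them. Single cells also weighed on low levels. Of the genes at 5 RPM or more in a lineage, most reads came from 1 cell in 4 of 12 in Afp cells, 1 of 9 in Klf1 cells, 3 of 19 in Pdgfra cells and 7 of 20 in Pax3 cells.

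Among the α chains, *Itga8* was highest in Pdgfra cells by summed level. It encodes the chain that pairs with β1 to bind nephronectin, fibronectin and other ligands with an arginine-glycine-aspartate motif, and lies on the minus strand of chromosome 2 from 12106632 to 12301922 (GRCm38). Its level was 92.2 RPM in Pdgfra cells (90.8 to 93.6), 3.35 RPM in Afp cells, 5.14 RPM in Klf1 cells and 5.16 RPM in Pax3 cells, 17.9 times the next lineage. In pools 1 to 5, Pdgfra cells had 59.4, 229, 85.8, 61.7 and 65.1 RPM, whereas the highest pool value in the other lineages was 12.9 RPM, in Klf1 cells of pool 5.

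Most Pdgfra cells nevertheless did not carry much *Itga8*. More than 10 reads were found in 35.4% of them (27.7% to 43.7%), against 6.56% of Afp cells, 8.12% of Klf1 cells and 10% of Pax3 cells, and the median Pdgfra cell had 0.854 RPM while the highest had 3100 RPM. Between 1 and 10 reads were found in 74 of 160 Klf1 cells and 34 of 61 Afp cells, so a single read of *Itga8* did not separate the lineages. The call held in 17 of 19 alternatives and was lost with the median cell in place of the sum and with lineages set by any marker read, where the log2 ratio fell from 4.16 to 0.70.

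*Itga4* had the opposite distribution. It encodes the α4 chain, which binds VCAM1 and fibronectin and is known on blood progenitors, and lies on the plus strand of chromosome 2 from 79255426 to 79333123. Klf1 cells had 91.7 RPM (90.4 to 93.2), Pax3 cells 49.9 RPM, Pdgfra cells 1.27 RPM and Afp cells 0.0265 RPM, the last from 2 reads in 61 cells. The level in Pdgfra cells was 47.8 times that in Afp cells, with a counting interval of 13.1 to 397, and that in Klf1 cells 3464 times (959 to 28607). One Pdgfra cell held 66.2% of the reads in its lineage, and without it the first ratio was 16.3. Klf1 cells had 110.8, 29.98, 86.5, 118.2 and 90.7 RPM in pools 1 to 5, and Pax3 cells 47.2, 135.1 and 35.9 RPM in pools 3 to 5, so these lineages overlapped and neither was called highest.

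By cell, 51.2% of Klf1 cells, 36.7% of Pax3 cells, 1.36% of Pdgfra cells and 0 of 61 Afp cells had more than 10 reads of *Itga4*, the 0 allowing a share of up to 4.92% by 3 counts and 5.87% by the Clopper-Pearson bound. *Itga4* was therefore split within the Klf1 cells, in which 48 of 160 cells had no read and the highest cell had 1188 RPM. By stage, Klf1 cells of the bulk sort had a summed level of 62.3 RPM at E10.5 and 99.2 RPM at E13.5, whereas the median cell had 29.7 and 7.31 RPM and the share of cells above 10 reads was 56.25% and 49.6%. The sum and the single cells thus gave opposite orders, but the shares and medians were not adjusted for pool. Pools 1 and 2 held 30 and 17 of these E13.5 cells, against 2 and 4 of the 32 E10.5 cells. Of all E13.5 bulk cells, 7 of 34 and 8 of 34 passed 10 reads in pools 1 and 2. In pools 3 to 5 it was 15 of 33, 26 of 34 and 16 of 24. The log2 ratio of the sums, E13.5 over E10.5, was 0.11, 0.93 and 0.15 in pools 3, 4 and 5. The part of pool was not tested.

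The bases before the start of *Itga4*, *Lamb1* and *Itga8* in RefSeq are shown, 250 of them for *Itga4* and *Itga8*, because these genes marked the extremes of the pattern, *Itga4* in Klf1 and Pax3 cells, *Lamb1* in every lineage except Klf1 cells and *Itga8* in Pdgfra cells. The sequences are from RefSeq on GRCm38.p6 and are written 5′ to 3′ on the strand of the gene. *Itga4* is at chr2:79255176-79255425 on the plus strand, *Lamb1* at chr12:31265043-31265233 on the plus strand and *Itga8* at chr2:12301945-12302194 on the minus strand. The RefSeq start of *Lamb1* lies 59 bases inside the gene as GENCODE annotates it, and these 59 bases are not printed, while that of *Itga8* lies 22 bases before the GENCODE start. Capitals mark CCNCNCCC, a core of sites bound by Klf1 and other Krüppel-like factors, and AGATAA, a core of sites bound by GATA factors, on either strand.
Itga4: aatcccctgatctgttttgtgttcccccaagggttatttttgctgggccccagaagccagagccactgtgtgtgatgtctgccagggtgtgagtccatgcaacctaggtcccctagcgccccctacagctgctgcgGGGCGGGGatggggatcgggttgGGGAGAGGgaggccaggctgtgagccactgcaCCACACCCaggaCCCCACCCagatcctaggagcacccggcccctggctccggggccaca
Lamb1: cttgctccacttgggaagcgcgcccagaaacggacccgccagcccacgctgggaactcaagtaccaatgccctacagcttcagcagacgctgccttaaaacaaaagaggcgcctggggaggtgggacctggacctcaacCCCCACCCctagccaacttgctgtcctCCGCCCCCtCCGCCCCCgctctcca
Itga8: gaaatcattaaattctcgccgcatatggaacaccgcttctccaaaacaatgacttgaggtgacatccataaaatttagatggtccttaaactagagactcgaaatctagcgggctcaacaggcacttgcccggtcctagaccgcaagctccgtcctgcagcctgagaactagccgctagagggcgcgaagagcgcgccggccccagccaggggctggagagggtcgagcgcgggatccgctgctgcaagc
The window of *Itga4* held 4 matches to CCNCNCCC, 2 on each strand, that of *Lamb1* 3 and that of *Itga8* 0, and AGATAA was in none of them. Over all 32851 promoter windows in the table, CCNCNCCC was found in 45.9% and AGATAA in 9.99%, and over the 25 windows of 22 matched integrin and laminin genes in 68% (17) and 4% (1, *Itgax*). GGGCGG, which can overlap CCNCNCCC on the other strand, was found in 32.7% of all windows and 36% (9) of the 25, and TATAAA in 12.4% and 0. A match is a description of the letters only.

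*Itgav*, the αv chain of receptors for vitronectin and fibronectin, was at a similar level in all lineages but Klf1 cells. It had 63.2 RPM in Afp cells, 62.5 RPM in Pdgfra cells and 57.6 RPM in Pax3 cells, against 6.77 RPM in Klf1 cells, with more than 10 reads in 32.8%, 35.4%, 43.3% and 5.62% of cells. The pool values ran from 24.5 to 93.01 RPM in Afp cells, 41.5 to 107.9 RPM in Pdgfra cells and 14.5 to 106.4 RPM in Pax3 cells, which overlap, and from 0 to 17.1 RPM in Klf1 cells. The lowest call in Klf1 cells held in 17 of 19 alternatives.

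*Itga5*, the α5 chain of the classical fibronectin receptor, was spread over all lineages. Levels were 39.1 RPM in Afp cells, 38.9 RPM in Klf1 cells, 67.4 RPM in Pdgfra cells and 23.3 RPM in Pax3 cells, and in the pools they overlapped between lineages, with 1.86 to 109.3 RPM in Pdgfra cells alone. *Itga9*, whose chain binds tenascin and osteopontin, was higher in Pdgfra cells (49.8 RPM) and Pax3 cells (21.5 RPM) than in Klf1 cells (2.43 RPM, and 0.915 RPM without 1 cell) and Afp cells (1.93 RPM). It had more than 10 reads in 25.9% of Pdgfra cells and 20% of Pax3 cells, against 1.25% of Klf1 cells.

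*Itga6*, the laminin-binding α6 chain, was at 72.98 RPM in Pax3 cells, 27.9 RPM in Pdgfra cells, 20.9 RPM in Klf1 cells and 2.52 RPM in Afp cells. These levels rested on few cells. One cell gave 40.2% of the reads in Pax3 cells, 53.2% in Pdgfra cells and 85.8% in Afp cells, and without it the levels were 45.4, 13.2 and 0.364 RPM. The share of cells with more than 10 reads was 20% in Pax3 cells, 7.48% in Pdgfra cells, 15% in Klf1 cells and 3.28% in Afp cells. The remaining 10 α chains with reads (*Itga1*, *Itga2*, *Itga3*, *Itga7*, *Itga10*, *Itga11*, *Itgad*, *Itgae*, *Itgal* and *Itgax*) were under the limit for counting. *Itgal*, a leukocyte chain, had 11.5 RPM in Klf1 cells, of which 43.4% came from 1 cell, and at most 0.311 RPM in each other lineage. *Itga10* and *Itgad* share 33.5% and 19.7% of their exon bases with other genes, so their reads are uncertain.

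Of the β chains, *Itgb1* was the most abundant gene of the set in all 4 lineages per length. It encodes the β1 chain, the partner of most of the α chains, and lies on the plus strand of chromosome 8 from 128685654 to 128733200. On the scale of RPM per kilobase of exon (RPKM), its level was 25.6 in Afp cells, 117.1 in Klf1 cells, 74.7 in Pdgfra cells and 69.4 in Pax3 cells. The next α chain on this scale was *Itga5* in Afp cells (7.94), Klf1 cells (7.88) and Pdgfra cells (13.7) and *Itga6* in Pax3 cells (8.09), and *Itga8* followed closely in Pdgfra cells (12.5). *Itgb5*, which pairs with αv, came next after *Itgb1* among all chains in Afp cells (13.01 RPKM).

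In RPM, *Itgb1* stood at 104.4 in Afp cells (102.1 to 106.8), 478 in Klf1 cells (475 to 481), 305 in Pdgfra cells (302 to 308) and 283 in Pax3 cells (278 to 289). Afp cells were low in every pool, with 108.8, 140.5, 87.97 and 72.1 RPM in pools 2 to 5, and did not overlap Klf1 cells (329 to 705.1 RPM) or Pdgfra cells (205.6 to 346 RPM). Pax3 cells had 490 and 256 RPM in pools 4 and 5, while in pool 3 they were barely above Afp cells. The ratio of Pax3 to Afp cells, 2.71, was below the 4-fold rule, so *Itgb1* was not called.

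By cell, the share with more than 10 reads and the median also differed, but neither was adjusted for pool. More than 10 reads of *Itgb1* were found in 50.8% of Afp cells (37.7% to 63.9%), 89.4% of Klf1 cells (83.5% to 93.7%), 80.95% of Pdgfra cells and 83.3% of Pax3 cells. The median cell had 9.53 RPM among Afp cells, 373 RPM among Klf1 cells, 235 RPM among Pdgfra cells and 210 RPM among Pax3 cells. Between 1 and 10 reads were found in 21 of 61 Afp cells, and 9 had 0 reads. Median depth was close, between 1094182 and 1256109 reads per cell over the 4 lineages, with the highest median in Afp cells. The median number of genes with reads was lowest in Afp cells, with 5340 against 5950 in Klf1, 5752 in Pdgfra and 6696 in Pax3 cells. Among all E10.5 Lgr5-GFP+ cells, 16 of 45 and 14 of 47 passed 10 reads of *Itgb1* in pools 1 and 2. In pools 3 to 5 it was 39 of 40, 39 of 41 and 35 of 38. Pool 2 held 33 of 61 Afp cells, against 21 of 160 Klf1 cells, 23 Pdgfra cells and 3 of 30 Pax3 cells. The share and median of Afp cells therefore cannot be separated from pool, and the part of gene number was not tested.

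**Figure D2:**
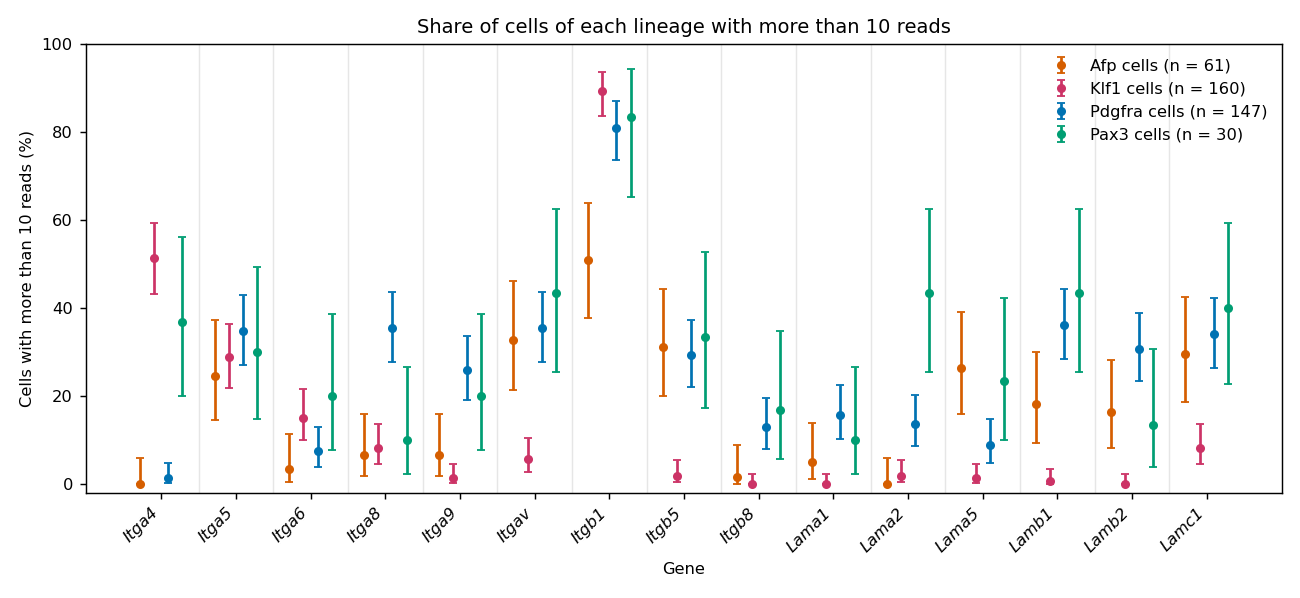
Share of cells (%) with more than 10 reads (vertical axis) for 15 genes (horizontal axis) in Afp, Klf1, Pdgfra and Pax3 cells, as points with exact 95% Clopper-Pearson intervals that cover counting error only. *Itgb1* was found in most cells of every lineage but in the smallest share of Afp cells (50.8%), and *Itga4* in 51.2% of Klf1 cells and 0 Afp cells. The shares were not adjusted for pool.

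*Itgb5* was at 46.2 RPM in Afp cells, 40.3 RPM in Pdgfra cells, 23.7 RPM in Pax3 cells and 4.19 RPM in Klf1 cells, where it was called lowest. In pools 1 to 5, Klf1 cells had 0.167, 0.0716, 5.14, 0.483 and 16.4 RPM and Pdgfra cells 67.4, 1.96, 31.97, 61.4 and 23.4 RPM. Pax3 cells had 5.37, 46.4 and 29.7 RPM in pools 3 to 5, and Afp cells 29.6 to 90.7 RPM in pools 2 to 5. Klf1 and Pax3 cells were close in pool 3, and the lowest call in Klf1 cells held in 10 of 19 alternatives. Among others, it was lost under 8-fold, under median-of-ratios scaling, with the mean of cells and without pool 4.

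*Itgb3*, the β3 chain of platelets and of an αv receptor, had 162.4 RPM in Pax3 cells and 4.44 to 5.23 RPM in the other lineages, and this height came from 1 cell. That cell had 6016 of the 6018 reads of *Itgb3* in Pax3 cells, together with 47616 reads of *Pf4*, 5142 of *Gp9* and 4101 of *Itga2b*, all genes of megakaryocytes, and 23 reads of *Pax3* and 0 of *Lbx1*. Without the 6 Pax3 cells that had more than 10 reads of *Ptprc*, *Pf4* or *Pecam1*, the level was 0.067 RPM. The same step removed 5 Afp, 27 Klf1 and 17 Pdgfra cells, although the sort had selected against the products of *Ptprc* and *Pecam1*. *Itgb8*, another partner of αv, was at 16.2 RPM in Pdgfra cells, 9.74 RPM in Pax3 cells, 4.20 RPM in Afp cells and 0.0279 RPM in Klf1 cells. Without the cell with the most reads in each, 10.7 RPM were left in Pdgfra cells, 5.31 RPM in Pax3 cells and 0.229 RPM in Afp cells, where that cell held 94.6% of the reads. *Itgb4*, *Itgb6* and *Itgb7* were under the limit for counting, with at most 9.94 RPM in a lineage.

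Of the 7 laminin chains counted, Klf1 cells had the lowest summed level of 6, and 4 of these were called lowest (4.09% of all counted genes were). *Lama1* and *Lama4* were also more than 4-fold lower, with the next lineage at 123.6 and 12.4 times the level of Klf1 cells. They were not lower in every shared pool and so were not called. *Lamb1* and *Lamc1* encode the β1 and γ1 chains shared by most trimers, and *Lamb1* lies on the plus strand of chromosome 12 from 31265234 to 31329644. The level of *Lamb1* was 69.3 RPM in Afp cells, 71.1 RPM in Pdgfra cells and 58.4 RPM in Pax3 cells, against 0.351 RPM in Klf1 cells. More than 10 reads were found in 18.03% of Afp cells, 36.1% of Pdgfra cells and 43.3% of Pax3 cells.

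One Afp cell supplied 43.1% of the *Lamb1* reads in that lineage, and the pools of Afp cells ran from 0.880 RPM in pool 4 to above 100 RPM in pool 3, so the level in Afp cells was far less even than that in Pdgfra cells (41.6 to 103.7 RPM). *Lamc1* was at 57.6 RPM in Afp cells, 61.2 RPM in Pdgfra cells, 36.5 RPM in Pax3 cells and 4.59 RPM in Klf1 cells. Klf1 cells had 0.0556, 0.25, 5.19, 8.46 and 7.004 RPM in pools 1 to 5, Pdgfra cells 42.2 to 89.1 RPM, Pax3 cells 16 to 47.03 RPM in pools 3 to 5 and Afp cells 79.9, 48.5, 21.99 and 7.68 RPM in pools 2 to 5, so that Klf1 and Afp cells were close in pool 5. In Afp cells 66.5% of its reads came from 1 cell, without which the level was 19.6 RPM, although 29.5% of Afp cells had more than 10 reads. The lowest calls of *Lamb1* and *Lamc1* in Klf1 cells each held in 13 of 19 alternatives and were both lost among E10.5 cells alone.

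*Lamb2*, the β2 chain, had 3 reads in 160 Klf1 cells (0.0167 RPM), against 14.2 RPM in Afp cells, 40.7 RPM in Pdgfra cells and 20.5 RPM in Pax3 cells. The ratio to Klf1 cells was 847 for Afp cells (289 to 4112) and 2433 for Pdgfra cells (832 to 11800). In Pdgfra cells it was even, with 23.5 to 52.7 RPM in the 5 pools and 30.6% of cells above 10 reads, whereas 71.2% of the reads in Pax3 cells came from 1 cell.

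The α chains of the laminins differed more among the non-erythroid lineages. *Lama5*, an α chain of many epithelial basement membranes, was at 59.03 RPM in Afp cells, 17.4 RPM in Pax3 cells, 12.4 RPM in Pdgfra cells and 1.42 RPM in Klf1 cells, where 75.2% of the reads came from 1 cell. Afp cells had 63.3, 33.8, 26.04 and 96.1 RPM in pools 2 to 5, and their ratio to Pax3 cells of 3.40 was below 4. The lowest call of *Lama5* in Klf1 cells held in 17 of 19 alternatives.

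*Lama1*, the α1 chain of early embryonic basement membranes, was at 25.8 RPM in Pdgfra cells (25.01 to 26.5), 6.37 RPM in Pax3 cells, 6.20 RPM in Afp cells and 0.0502 RPM in Klf1 cells. A single cell held 66.1% of the reads in Pax3 cells and another 57.5% in Afp cells, and 2.30 and 2.68 RPM were left without them. The ratio to Pax3 cells was 4.04, just over the rule, and without the cell with the most reads in each lineage the ratio to the next lineage, then Afp cells, was 7.33. Leaving out any 1 pool took the log2 ratio to the next lineage from 2.02 to between 1.10 and 1.93, under the rule. Pdgfra cells had 33.2, 0.151, 29.6, 36.2 and 18.7 RPM in pools 1 to 5, so pool 2 held almost none. Median-of-ratios scaling, which moved all levels of Pdgfra cells by -0.14 on the log2 scale and those of the other lineages by less than 0.1, gave 1.84. The call held in 4 of 19 alternatives.

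*Lama2*, the α2 chain of muscle basement membranes, was at 77.6 RPM in Pax3 cells and 32.1 RPM in Pdgfra cells, against 1.51 RPM in Klf1 cells and 0.358 RPM in Afp cells. Pax3 cells had 74.9, 244 and 34.7 RPM in pools 3 to 5, and Pdgfra cells 44.9, 0.339, 56.02, 15.7 and 38.2 RPM in pools 1 to 5. More than 10 reads were found in 43.3% of Pax3 cells and 13.6% of Pdgfra cells. *Lama4*, the α4 chain of vessel walls and mesenchyme, was at 23.7 RPM in Pdgfra cells, 20.03 RPM in Pax3 cells, 1.999 RPM in Afp cells and 0.162 RPM in Klf1 cells. A single cell held 55.7% of the reads in Pax3 cells and another 91.4% in Afp cells, and 9.16 and 0.174 RPM were left without them. *Lama3*, *Lamb3* and *Lamc3* were lower, with at most 12.96 RPM in a lineage.

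**Figure D3:**
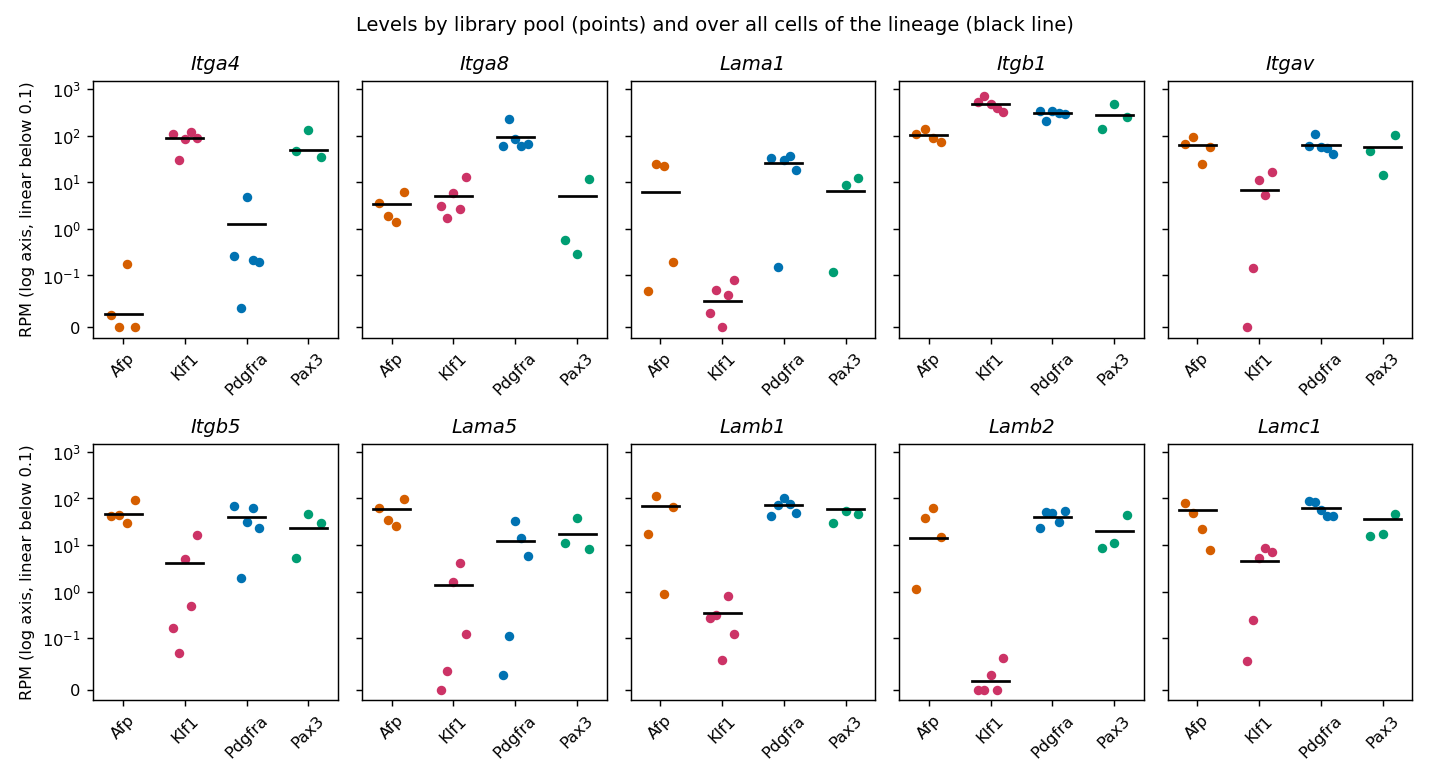
Level (RPM, logarithmic axis that is linear below 0.1) of 10 genes in each lineage, with 1 point for each library pool of at least 5 cells and a black line for the level over all cells of the lineage. The points of Klf1 cells lie below those of Pdgfra cells in all pools for *Lamb1*, *Lamb2* and *Lamc1*, and *Lama1* in Pdgfra cells has 1 pool at 0.151 RPM.

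Counted per cell, at least 1 laminin chain with more than 10 reads was found in 35 of 61 Afp cells (57.4%, 44.1% to 69.96%), 74.1% of Pdgfra cells (66.3% to 81.01%) and 25 of 30 Pax3 cells (83.3%, 65.3% to 94.4%). It was found in 19 of 160 Klf1 cells (11.9%, 7.30% to 17.9%). The number of integrin and laminin genes above 10 reads had a median of 2 in Afp cells, 2 in Klf1 cells, 4 in Pdgfra cells and 5 in Pax3 cells, and at 100000 reads per cell the medians were 1, 1, 2 and 2. The highest number in a cell was 12, 7, 13 and 12. These shares and counts by cell, and those of receptors and trimers, were not adjusted for pool, and the lineages filled the pools unequally. For *Lamc1* in E10.5 bulk cells, 5 of 42 and 4 of 41 passed 10 reads in pools 1 and 2. In pools 3 to 5 it was 14 of 41, 13 of 42 and 9 of 37.

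A receptor or trimer was counted in a cell where all its chains had more than 10 reads, which says that the messages were present and not that the protein was assembled. The α4β1 pair (*Itga4* and *Itgb1*) was found in 50.6% of Klf1 cells and 36.7% of Pax3 cells, against 1.36% of Pdgfra cells and 0 of 61 Afp cells. The α8β1 pair was found in 32.7% of Pdgfra cells, 10% of Pax3 cells, 6.88% of Klf1 cells and 4.92% of Afp cells. The α5β1 pair was in all lineages, in 16.4%, 26.2%, 34.01% and 30% of Afp, Klf1, Pdgfra and Pax3 cells.

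With αv, the pair with β1 was found in 22.95% of Afp cells, 34.7% of Pdgfra cells, 40% of Pax3 cells and 5.62% of Klf1 cells. The pair with β5 was found in 13.1%, 16.3%, 13.3% and 0.625% of these. The α9β1 pair was in 21.8% of Pdgfra cells and 20% of Pax3 cells, against 1.64% of Afp cells and 0.625% of Klf1 cells. Of all pairs and trimers looked for, 3 were in at least 10% of Afp cells, 3 of Klf1 cells, 5 of Pdgfra cells and 11 of Pax3 cells, where 10% is 3 cells.

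Full laminin trimers with the γ1 chain were rare in single cells. None was found in 160 Klf1 cells, which allows a share of up to 1.88% by 3 counts and 2.28% by the Clopper-Pearson bound. The α2, β1 and γ1 chains met in 7.48% of Pdgfra cells (3.80% to 12.99%) and 13.3% of Pax3 cells (3.76% to 30.7%), and the α5, β1 and γ1 chains in 3.28% of Afp cells, 4.76% of Pdgfra cells and 13.3% of Pax3 cells. Among cells with *Itgb1*, 2 or more α chains were found in 41.9% of Afp, 37.8% of Klf1, 55.5% of Pdgfra and 52% of Pax3 cells.

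**Figure D4:**
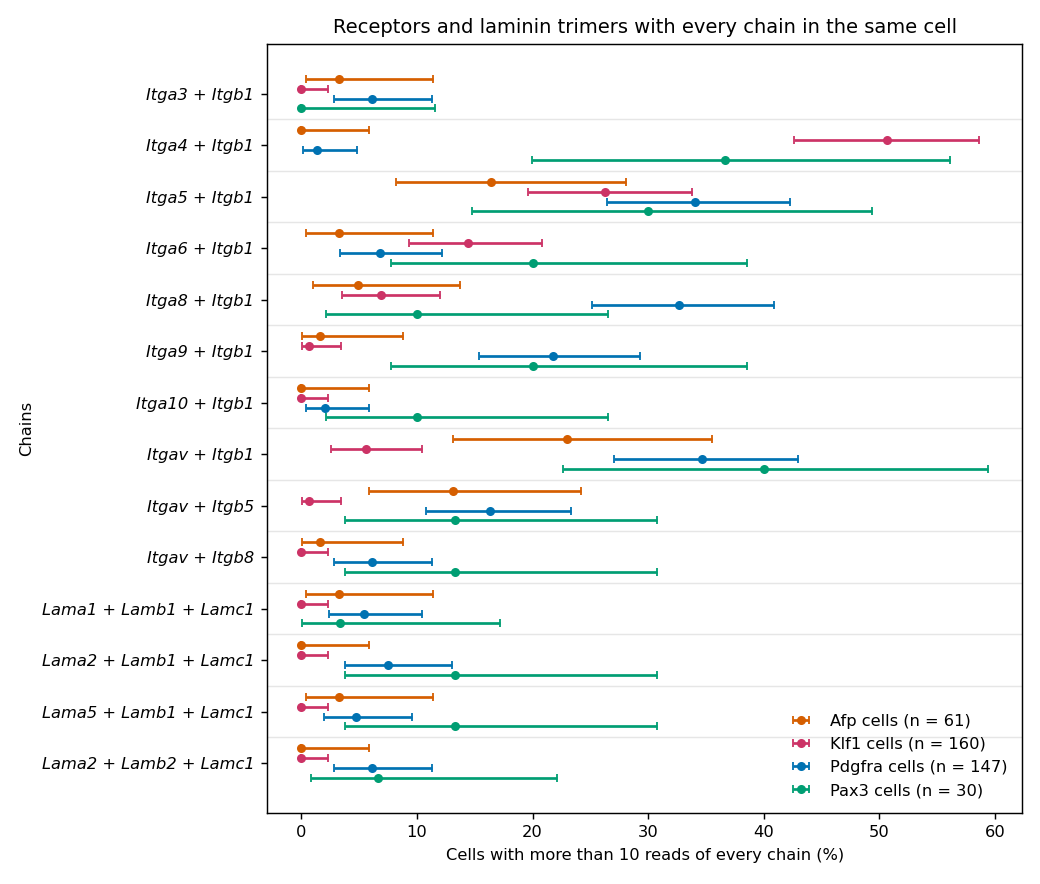
Share of cells (%, horizontal axis) with more than 10 reads of every chain of 14 receptors and laminin trimers (vertical axis) in the 4 lineages, as points with exact 95% Clopper-Pearson intervals for counting error. *Itga4* with *Itgb1* stands out in Klf1 cells (50.6%) and *Itga8* with *Itgb1* in Pdgfra cells (32.7%).

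Stage could be compared in Klf1 cells of the bulk sort, with 32 cells at E10.5 and, in pools 1 to 5, 30, 17, 27, 30 and 21 cells at E13.5. Pools 3, 4 and 5 held at least 5 cells of both stages. Of 8 integrin and laminin genes counted, 1 was at least 2-fold higher at E13.5 with the same sign in each pool (*Itgb1*; 7.16% of 8776 genes counted) and 2 were lower (*Itga6* and *Lamc1*; 5.4%). The median log2 ratio was -0.73 over the 8 genes and -0.04 over all counted genes. The largest ratios among the 8 were those of *Itgb3* (-4.47) and *Itgal* (-4.05). They were not called because their sign differed between pools, with 2.25, -4.84 and 4.18 for *Itgb3* and 0.25, -2.20 and -7.12 for *Itgal* in pools 3, 4 and 5.

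*Itgb1* was at 549.6 RPM at E13.5 and 220.0 RPM at E10.5, a log2 ratio of 1.32. In pools 3, 4 and 5 the E13.5 cells had 552, 473 and 355 RPM and the E10.5 cells 161.7, 263 and 226 RPM, without overlap. Of the E13.5 cells 91.2% and of the E10.5 cells 81.2% had more than 10 reads. The E13.5 cells had fewer reads and genes per cell (medians of 1085488 reads and 5745 genes, against 1310558 and 6764) and more *Klf1* (1554 against 974.8 RPM), and the part of these differences was not tested.

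*Lamc1* was at 2.46 RPM at E13.5 and 12.4 RPM at E10.5, with more than 10 reads in 4% and 25% of cells. One cell held 43.6% of the E13.5 reads, and 1.40 RPM were left without it. Its log2 ratio was -2.34, and -4.54, -1.64 and -0.55 in pools 3, 4 and 5. *Itga6* was at 17.1 RPM at E13.5 and 35.9 RPM at E10.5, a log2 ratio of -1.07, which was -2.38, -0.03 and -1.25 in the pools and -0.75 without pool 2 or -0.97 without pool 3, so that it no longer passed the 2-fold rule.

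Sort could be compared in Pdgfra cells at E10.5, with 64 Lgr5-GFP+ and 75 bulk cells in all 5 pools. Of 18 genes counted, 1 was at least 2-fold higher in Lgr5-GFP+ cells (*Itgb8*; 1.85% of 10662 genes counted) and 0 were lower (1.8%). *Itgb8* was at 25.9 RPM in Lgr5-GFP+ cells and 8.85 RPM in bulk cells, a log2 ratio of 1.55. The Lgr5-GFP+ cells had 0.0643, 0.234, 36.04, 57.2 and 0.947 RPM in pools 1 to 5, and the bulk cells 0, 0, 9.29, 30.2 and 0 RPM, so the reads came mostly from pools 3 and 4. One cell gave 47.4% of the Lgr5-GFP+ reads, and 13.9 RPM were left without it. The shares of cells above 10 reads were close, 15.6% and 12%.

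*Lamb2* was higher in Lgr5-GFP+ cells in all 5 pools, with 51.2 RPM against 26.3 RPM, but its log2 ratio of 0.96 was under the 2-fold rule. The summed level of *Itga8* was 72.5 RPM in Lgr5-GFP+ cells and 102.1 RPM in bulk cells, of which 1 bulk cell gave 30.97%. By cell, without adjustment for pool, the order was the opposite. More than 10 reads were found in 43.75% of Lgr5-GFP+ and 28% of bulk cells, and the median cell had 2.36 and 0 RPM. *Itgb1* was at 271 and 334 RPM, with more than 10 reads in 84.4% and 77.3% of cells. The median log2 ratio was -0.07 over the 18 genes and -0.01 over all counted genes. The Lgr5-GFP+ cells had more reads and genes per cell (medians of 1262832 reads and 6666 genes, against 1139928 and 5459). They had less *Pdgfra* (252 against 404.1 RPM), and the part of these differences was not tested.

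**Figure D5:**
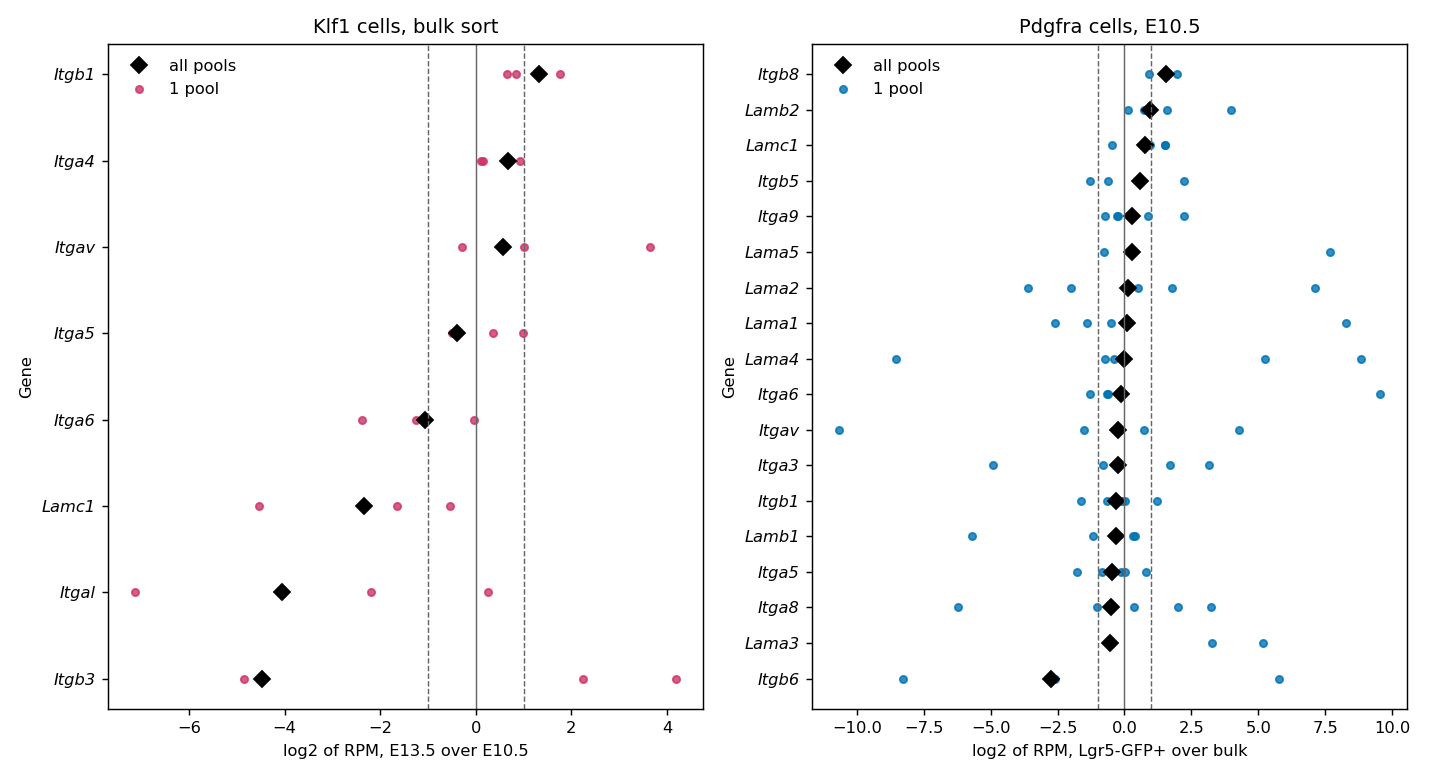
Log2 ratio of the level (RPM, horizontal axis) for each counted gene (vertical axis), on the left E13.5 over E10.5 in Klf1 cells of the bulk sort and on the right Lgr5-GFP+ over bulk in Pdgfra cells at E10.5, with diamonds for all pools, points for single pools above 0 in both arms and dashed lines at 2-fold. *Itgb1* lies right of the line on the left side (1.32) with all its pools above 0, whereas most genes on the right side have pools on both sides of 0.

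Over all cells of a group, the levels stood beside different lineages. E13.5 bulk cells, of which 78.6% were Klf1 cells, had 476.8 RPM of *Itgb1* and 99.4 RPM of *Itga4*, but 1.43 RPM of *Lamb1*, 0.0113 RPM of *Lamb2* and 0.164 RPM of *Lama1*. E13.5 Lgr5-GFP+ cells, of which 77.5% were above none of the 4 markers, had 384.7 RPM of *Itgb1*, 164.2 RPM of *Itga6*, 152.7 RPM of *Itga5* and 220.7 RPM of *Lamb1*. In the E10.5 groups, *Itgb1* was at 293.4 RPM in bulk and 211.6 RPM in Lgr5-GFP+ cells, and *Lamc1* at 37.8 and 77.9 RPM.

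The cells above none of the 4 markers were a mixture, and their adhesion genes differed by group. Among the 62 such E13.5 Lgr5-GFP+ cells, 19 passed for the endothelial list, 10 for mesenchyme and 9 for leukocytes. They had 152.8 RPM of *Itga6*, 149.1 RPM of *Itga5* and 221 RPM of *Lamb1*, of which 1 cell gave 52.1%. Among the 32 E13.5 bulk cells, 10 passed for leukocytes, and the leukocyte chains *Itgal* (49.1 RPM) and *Itgb7* (31.5 RPM) were above their level in the other 3 unmarked groups. One cell gave 61.8% of the *Itgal* reads and 1 cell 51.3% of the *Itgb7* reads. Without the cell with the most reads, 19.5 RPM of *Itgal* were left, against 18.7 RPM in the E13.5 Lgr5-GFP+ cells treated alike, and 15.8 RPM of *Itgb7*.

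At E10.5, unmarked cells had a high summed level of *Lama1*, with 134.2 RPM in 66 Lgr5-GFP+ cells and 77.7 RPM in 82 bulk cells. It was 0.635 RPM in E13.5 bulk and 5.11 RPM in E13.5 Lgr5-GFP+ cells. Of the E10.5 Lgr5-GFP+ cells, 26 passed for mesenchyme and 15 for the cholangiocyte list. *Lamb1* and *Lamc1* were also high in them, at 152.1 and 105.3 RPM. These levels were above those of Pdgfra cells for *Lama1* (25.8 RPM), *Lamb1* (71.1 RPM) and *Lamc1* (61.2 RPM).

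Other genes of the pathway were taken from lists of matrix ligands, other matrix receptors and cytoplasmic partners of integrins, and described by the same rule. Of 16 ligands and matrix partners, 13 were counted. Among them *Vtn* (vitronectin, a plasma protein made by the liver) was highest in Afp cells at 629 RPM (2.23% of all counted genes were). *Tnc* (tenascin C) was highest in Pdgfra cells at 200.5 RPM (1.88% of all counted genes were). Lowest in Klf1 cells were 6, *Fn1*, *Col4a1*, *Nid2*, *Hspg2*, *Agrn* and *Fbln1*, which encode fibronectin and partners of the basement membrane (4.09% of all counted genes were lowest in Klf1 cells). *Icam1* was lowest in Pax3 cells (0.135 RPM), as were 1.51% of all counted genes. *Fn1* was at 500.9 RPM in Afp cells, 635.9 RPM in Pdgfra cells and 276.9 RPM in Pax3 cells, against 15.03 RPM in Klf1 cells.

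Of 7 other matrix receptors, the collagen receptors *Ddr1* and *Ddr2* were highest in Pdgfra cells (41.5 and 145.9 RPM), beside 1.88% of all counted genes. The proteoglycan *Sdc1* was lowest in Klf1 cells (10.1 RPM), beside 4.09%. Of 12 counted genes of 16 cytoplasmic partners, *Tln2*, *Fermt2*, *Parva* and *Bcar1*, 4 in all, were lowest in Klf1 cells, beside the same 4.09%. *Fermt3*, a kindlin of haematopoietic cells, was at 363.4 RPM in Klf1 cells. Pax3 cells had 103.6 RPM of it, with more than 10 reads in 6.67% of cells. Afp cells had 10.95 RPM and Pdgfra cells 3.32 RPM. *Tln1* was at 346.8 RPM in Pax3 cells, 277.8 RPM in Klf1 cells, 132.4 RPM in Pdgfra cells and 110.3 RPM in Afp cells. The chains left out by the rule, *Itga2b* and *Itgb2*, were at 29.7 and 18 RPM in Klf1 cells and at 0.371 and 2.25 RPM in Afp cells. Pdgfra cells had 4.24 and 0.472 RPM and Pax3 cells 110.9 and 13.01 RPM. In Pax3 cells, 4101 reads of *Itga2b* came from the cell with most *Itgb3* and 8 from the rest.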

How the data were processed

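Single-cell Smart-seq2 libraries were used, all those in the deposited count table, each sample being 1 cell, with stage and sort from the labels. According to the methods and the submitters' processing notes, the authors aligned reads to GRCm38.p6 with STAR 2.6.0c and counted uniquely aligned reads per gene with featureCounts of Subread 1.6.2 on an Ensembl annotation, and they kept cells by mitochondrial, spike-in, read and gene limits. The deposited table holds raw counts per gene, and GENCODE symbols on that build were found for 54042 of 54195 genes. 0 columns were left unused. The values of 1 gene of the set are not reported here. A normalised score table that the authors also deposited was not used here, because its values were corrected between experiments.

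Reads were summed over the cells of a lineage or group and divided by their reads on all genes (RPM), and RPKM used the union of annotated exons. The computation used Python 3.11.15, numpy 2.4.6, pandas 2.3.3 and scipy 1.17.1 and was tested on simulated data. Because no embryo or sort is named, each group was 1 sample, with pools as technical batches, and the sorts of the methods were not matched to pools. Spread between pools cannot be read as spread between embryos, because the labels do not say which embryos a pool holds. No doublet caller was run, and the 13 cells above several markers were kept apart. Genes needed a mean of 5 RPM, lineage calls 4-fold and stage or sort calls 2-fold, always with the same sign in each pool of at least 5 cells on both sides. Alternatives to these choices were run. The rule for lowest calls, the values without the cell with the most reads and those of E10.5 cells alone were added after the data were seen. Named in full were all genes called, with *Itgb1*, *Itgav*, *Lamb1* and *Lamc1*; the others described in more detail were chosen after their values were seen. The genes, pathway lists and comparisons were chosen with earlier results of these data known.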

Additional observations from a re-analysis of the deposited data

How the results depend on the processing

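No paired analysis was possible because no comparison rests on a test and the cells carry no pairing. Counts of genes are given here, and the cause of a change was not tested.

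Highest in Pdgfra cells were 2 genes (*Itga8*, *Lama1*). The count was 1 (*Itga8*) at 8-fold, at marker limits of more than 100 reads, with lineages that may share cells, with the mean per cell, with median-of-ratios scaling, without each pool in turn (1 to 1), without cells over 10 reads of *Ptprc*, *Pf4* or *Pecam1* and with E10.5 cells only. It was 0 with any marker read and with the median per cell, and 4 without pools 3, 4 and 5 (*Itga8*, *Itga9*, *Lama3*, *Lamb2*). Highest in Afp cells, 0 became 1 (*Lama5*) with E10.5 cells only and 0 to 1 without a pool (1 without pool 4). Highest in Klf1 cells, 0 became 1 without pools 3, 4 and 5 (*Itga4*) and 1 with E10.5 cells only (*Itgal*). Highest in Pax3 cells, 0 became 1 at 2-fold (*Itga6*) and 3 without pools 3, 4 and 5 (*Itga2*, *Itgb3*, *Itgb8*).

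Lowest in Afp cells, 1 (*Itga4*) became 2 at 2-fold, without pools 3, 4 and 5 and with E10.5 cells only, 0 with any marker read, with shared cells and with cells thinned to 100000 reads, and 1 to 2 without a pool (2 without pool 3). Lowest in Klf1 cells, 6 became 1 (*Lama5*) with any marker read and 0 with the median per cell, and stayed at 4 to 7 elsewhere. Lowest in Pax3 cells, 0 became 1 with any marker read, with shared cells, with a mean of at least 1 RPM, without a filter and with E10.5 cells only, 2 without pools 3, 4 and 5, and 0 to 1 without a pool (1 without pool 2).

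Higher in Lgr5-GFP+ Pdgfra cells, 1 (*Itgb8*) became 2 at 1.5-fold, with a mean of at least 1 RPM and without a filter, 0 at 4-fold, and 1 to 3 without a pool (3 without pool 2 or 4). Lower in them, 0 became 0 to 1 without a pool (*Lama1* without pool 1). Higher at E13.5 in Klf1 cells, 1 (*Itgb1*) became 2 at 1.5-fold and without a filter, and 0 at 4-fold. Lower, 2 (*Lamc1*, *Itga6*) became 1 at 4-fold, with the mean per cell and with median-of-ratios scaling, and 1 to 3 without a pool. Receptors and trimers in at least 10% of cells became 12 in Afp, 8 in Klf1 and 14 in Pdgfra cells with 1 read per chain, and 0 in Afp and 4 in Pax3 cells after thinning.

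With any marker read, which left 58 Afp, 70 Pdgfra and 18 Pax3 cells, the log2 ratio of *Itga4* in Afp cells to the lowest other lineage turned from -5.58 to 1.19 and that of *Itgb5* in Klf1 cells from -2.50 to 0.61.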

Other observations

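The 13 cells with more than 10 reads of several lineage markers entered no comparison. They held chains that were set apart between the lineages, with 116.4 RPM of *Itga4* beside 69.4 RPM of *Itga9*, 90.8 RPM of *Lama5* and 66.2 RPM of *Lamb1*. One cell gave 67.25% of the *Lama5* reads, without which 31.9 RPM were left, and 1 cell gave 47.2% of the *Lamb1* reads, without which 39.2 RPM were left. *Itgb1* was at 358.6 RPM in them. The median number of integrin and laminin genes with more than 10 reads was 6, and 9 of the 11 cells with *Itgb1* had 2 or more α chains. Whether these are single cells or doublets was not tested.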
